A study of Mus musculus with 2 samples.

Results

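The ephrins and the Eph receptors described here are 10 genes: the ephrin-B ligand genes Efnb1, Efnb2 and Efnb3, the ephrin-A ligand gene Efna1, the EphB receptor genes Ephb1, Ephb2, Ephb3 and Ephb4, and the EphA receptor genes Epha2 and Epha4. They were chosen by name: each row of both gene tables was taken whose Ensembl identifier, without its version, carries one of these symbols in the GENCODE M21 annotation. All 10 were found, among 43346 mouse genes in the tables, of which 21461 are nuclear protein-coding genes. RNA longer than 200 nt was sequenced from heart tissue of B6NCrl mouse embryos at embryonic day 12.5. Each of 2 libraries started from 10 ng of RNA with synthetic ERCC spike-in RNAs added. No genetic change and no treatment is given for either library, and both came from pooled male and female embryos. The labels call them biological replicates 1 and 2 and give both the same donor identifier, and no label says whether the embryos came from separate litters. The libraries form 1 group, so there is no comparison between conditions and no p-value, and the spread between them is the only measure of the error between samples.

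Eph receptors are receptor tyrosine kinases whose ligands, the ephrins, are themselves held on the surface of the neighbouring cell. A-type ephrins are anchored in the membrane by a lipid and bind mostly EphA receptors. B-type ephrins cross the membrane and bind mostly EphB receptors. Binding signals into the receptor cell, called forward signalling, and into the ephrin cell, called reverse signalling, and often makes the cells draw apart. In mouse embryos ephrin-B2 marks arteries and EphB4 marks veins, and loss of either gene stops the remodelling of vessels and the formation of the heart's trabeculae.

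Reverse signalling of the B-type ephrins runs through their cytoplasmic tail, so the ends of the 3 ephrin-B coding sequences are shown, read from the GENCODE M21 transcripts on the GRCm38 (mm10) build. Each line gives the last 33 codons, 99 bases without the stop codon. Capitals mark the last 4 codons, 12 bases, which encode the end of the protein that PDZ-domain proteins bind.
Efnb1: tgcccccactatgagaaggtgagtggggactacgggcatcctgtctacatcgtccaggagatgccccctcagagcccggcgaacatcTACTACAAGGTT
Efnb2: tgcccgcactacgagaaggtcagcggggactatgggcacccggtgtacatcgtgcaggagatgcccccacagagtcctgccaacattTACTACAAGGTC
Efnb3: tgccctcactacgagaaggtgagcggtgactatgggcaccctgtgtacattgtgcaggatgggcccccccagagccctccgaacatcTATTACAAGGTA
The stretch of Efnb1 is at chrX:99147426-99147524 on the plus strand, that of Efnb2 at chr8:8620591-8620689 on the minus strand and that of Efnb3 at chr11:69555863-69555961 on the minus strand. Efnb1 and Efnb2 had the same base at 84 of the 99 positions, or 84.8%. Efnb2 and Efnb3 also shared 84, and Efnb1 and Efnb3 shared 82, or 82.8%. Within the 12 capital bases, Efnb1 and Efnb2 shared 11, and Efnb3 shared 10 with each of them.

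The libraries held 34751234 estimated reads in replicate 1 and 31847875 in replicate 2, of which 33480066 and 30665239 fell on mouse genes. The 10 genes took 16900 reads in replicate 1 and 16058 in replicate 2, which is 0.0505% and 0.0524% of gene reads. The tissue label was checked against marker genes. In both libraries all 6 cardiomyocyte, 8 endothelial and endocardial, 5 cushion, 5 epicardial and 5 smooth muscle and pericyte markers reached 1 TPM, where TPM is a level corrected for transcript length. So did all 5 liver and all 4 erythroid markers, so reaching 1 TPM does not separate heart from other sources of RNA. Of the 5 lung and foregut markers, only Epcam reached 1 TPM in both libraries. Of the neural and neural crest markers reported here, Tubb3 and Stmn2 also reached 1 TPM. Tubb3 was at 7.44 and 6.19 TPM and Stmn2 at 2.64 and 2.28 TPM in replicates 1 and 2. Sox10, Elavl3 and Foxd3 were at 0.23 TPM or less in each library. Because the RNA came from tissue of many cell types, fewer cells of a type and less RNA per cell cannot be told apart in any level given here.

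Of the 10 genes, 9 were detected, which here means that each library had 1 TPM or more. The same held for 57.5% of nuclear protein-coding genes. The median of the 10 mean levels was 20.6 TPM, beside 3.64 TPM over all nuclear protein-coding genes. Among detected protein-coding genes the median was 18.9 TPM, and 6 of the 10 genes were above it. The means of the detected genes spanned 48.9-fold, with Efnb3 at the top and Ephb2 at the bottom, and Ephb1 lay below 1 TPM in both libraries. Levels are given as mean ± SD of the libraries (n = 2).

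**Figure D1:**
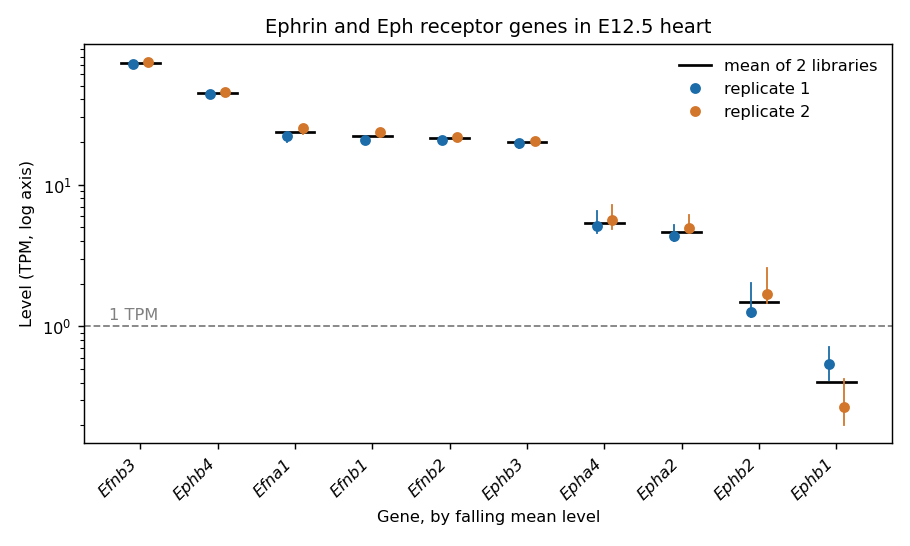
Level of each of the 10 genes in TPM (log axis), with a point for each library, a black bar for the mean and vertical lines for the credibility bounds deposited by the authors. Efnb3 and Ephb4 stood highest, 4 genes lay close to 20 TPM, and Ephb1 was below the dashed line at 1 TPM in both libraries.

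Efnb3 encodes ephrin-B3, best known in mice for keeping axons from crossing the midline of the spinal cord. It had 71.42 TPM in replicate 1 and 73.22 TPM in replicate 2, from 5204 and 4823 reads, and averaged 72.3 ± 1.27 TPM. Its gene, ENSMUSG00000003934.5, lies at chr11:69554092-69560205 on the minus strand. Efnb3 ranked 1945 among 12344 detected protein-coding genes, in the top 15.8%, and its coefficient of variation between libraries, 1.76%, was the lowest of the 9 detected genes.

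Efnb1, at chrX:99136130-99148991 on the plus strand, encodes ephrin-B1, whose loss in humans causes craniofrontonasal syndrome. It had 20.71 and 23.51 TPM in replicates 1 and 2, from 1546 and 1524 reads. Efnb2, at chr8:8617434-8661242 on the minus strand, encodes the arterial ligand ephrin-B2 and had 20.54 and 21.84 TPM, from 2050 and 1971 reads. The ranges of Efnb1 and Efnb2 over the libraries overlapped. Efnb1 averaged 22.1 ± 1.98 TPM and Efnb2 21.2 ± 0.919 TPM. Efnb3 was 3.28 ± 0.236 times as high as Efnb1.

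The 3 ephrin-B genes summed to 112.67 TPM in replicate 1 and 118.57 TPM in replicate 2. Efnb3 made up 62.6 ± 1.16% of that sum, so the ephrin-B class was carried mainly by one ligand gene in each library.

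Efna1, at chr3:89271733-89281142 on the minus strand, encodes ephrin-A1, a lipid-anchored ligand that EphA2 binds tightly. It had 22.04 TPM in replicate 1 and 25.21 TPM in replicate 2, from 719 and 744 reads, with a mean of 23.6 ± 2.24 TPM. Its mean was slightly above those of Efnb1 and Efnb2, and its range overlapped that of Efnb1 but not that of Efnb2. It drew fewer reads than either: its main transcript is 1480 bases long, and those of Efnb1 and Efnb2 are 3258 and 4324 bases.

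Ephb4 encodes the receptor that marks veins and binds ephrin-B2. It had 43.37 TPM in replicate 1 and 45.27 TPM in replicate 2, from 4342 and 4082 reads, and averaged 44.3 ± 1.34 TPM. The gene, ENSMUSG00000029710.11, lies at chr5:137350109-137378669 on the plus strand and ranked 3202 among detected protein-coding genes, in the top 25.9%. Ephb4 was the highest of the 6 receptor genes in both libraries.

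Ephb3, which acts together with Ephb2 in mouse vessel and axon patterning, lies at chr16:21204755-21223305 on the plus strand. It had 19.53 and 20.38 TPM in replicates 1 and 2, from 1830 and 1756 reads. Ephb2, at chr4:136647539-136835988 on the minus strand, had 1.26 and 1.70 TPM, from 161 and 167 reads. Ephb2 thus passed the 1 TPM limit in both libraries but ranked 12026 of the 12344 detected genes. Its coefficient of variation in TPM, 21.02%, was the highest of the 9.

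Ephb1 lies at chr9:101922128-102354693 on the minus strand and is best known in mice for steering retinal axons at the optic chiasm. It had 0.54 TPM in replicate 1 and 0.27 TPM in replicate 2, from 54 and 26 reads. A gene without any read could still be present at up to 3 reads, which for Ephb1 is 0.03 TPM in replicate 1, so Ephb1 was below the detection limit used here yet not at 0. The 4 EphB genes summed to 64.7 TPM in replicate 1 and 67.62 TPM in replicate 2, and Ephb4 made up 67.0 ± 0.06% of it.

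The 2 EphA genes were lower than Ephb4, Ephb3 and every one of the 4 ligand genes. Epha4, at chr1:77367185-77515088 on the minus strand, encodes a receptor that binds ephrins of both types. It had 5.07 and 5.61 TPM in replicates 1 and 2, from 604 and 569 reads. Epha2, at chr4:141301240-141329384 on the plus strand, encodes a receptor prominent in epithelia. It had 4.33 and 4.96 TPM, from 390 and 396 reads. Epha4 was 1.15 ± 0.0282 times as high as Epha2, a ratio that was not called apart by the rule given next.

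The order of levels was compared pair by pair within each library. A pair was called apart when the log2 ratio of TPM + 0.1 pointed one way in each library and averaged more than 3 standard errors, where the error came from how much genes of like level varied between the libraries. Of the 45 pairs 39 were called, while 92.5% of pairs of detected protein-coding genes were. These sets are unlike, since the 45 include the pairs with Ephb1, which was not detected. All pairs with Ephb1 were called, so the share called among the detected genes alone was lower than 39 of 45. Of the 9 pairs of neighbours in the order, 5 were called.

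The called steps began with Efnb3 over Ephb4, a ratio of 1.63 ± 0.0208. Ephb4 was 1.88 ± 0.122 times Efna1, and Ephb3 was 3.74 ± 0.155 times Epha4. Epha2 was 3.18 ± 0.367 times Ephb2. The remaining step, Ephb2 over Ephb1, was 4.31 ± 2.80, and its standard error came from the lowest abundance bin of detected genes because Ephb1 itself was not detected. The order therefore fell into levels: Efnb3, then Ephb4, then 4 genes near 20 TPM, then Epha4 and Epha2, then Ephb2 and last Ephb1.

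Within the 4 genes near 20 TPM the neighbours were not called apart. Efna1 over Efnb1 was 1.07 ± 0.00572, Efnb1 over Efnb2 was 1.04 ± 0.0482 and Efnb2 over Ephb3 was 1.06 ± 0.0141. The extremes of these 4, Efna1 over Ephb3, were called apart, with a log2 ratio of 0.24 and a standard error of 0.07. Between the arterial and venous pair, Ephb4 was 2.09 ± 0.0274 times as high as its ligand gene Efnb2, which was called.

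**Figure D2:**
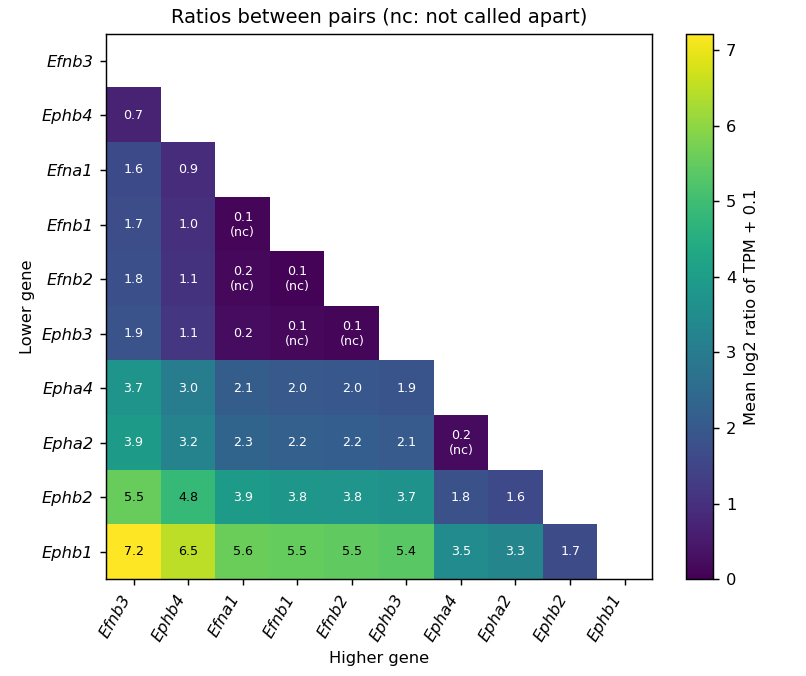
Mean log2 ratio of TPM + 0.1 over the libraries for each of the 45 pairs, with the higher gene in the column and the lower gene in the row. The 6 pairs marked nc were not called apart, and 5 of them lie among Efna1, Efnb1, Efnb2 and Ephb3.

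Ligand genes were then set against receptor genes as summed TPM. The 4 ephrin genes summed to 134.71 TPM in replicate 1 and 143.78 TPM in replicate 2, against 74.1 and 78.19 TPM for the 6 Eph genes, a ratio of 1.83 ± 0.0148. The ephrin-B genes over the EphB genes gave 1.75 ± 0.00852. Efna1 over the 2 EphA genes gave 2.36 ± 0.0285, and the EphB genes over the EphA genes gave 6.64 ± 0.343. These sums cover only the 10 genes and weight each RNA equally, whichever cells it came from.

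The other 12 genes of the family were read to see how far the 10 stand for the whole. Of them 7 were detected, which makes 16 of 22, beside 57.5% of nuclear protein-coding genes. The highest was Epha7, an EphA receptor known from the developing brain, with 48.06 and 46.70 TPM in replicates 1 and 2. Its mean, 47.4 ± 0.962 TPM, stood between Efnb3 and Ephb4. Efnb3 was 1.53 ± 0.0579 times Epha7, which was called, and Epha7 was 1.07 ± 0.0541 times Ephb4, which was not.

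The other detected ligand genes, all of the A type, were Efna5 at 20.3 ± 0.375 TPM, Efna2 at 13.8 ± 0.297 TPM and Efna4 at 7.88 ± 1.08 TPM. Efna5 lay between Efnb2 and Ephb3 and was called apart from neither. The other detected receptor genes were Epha3, which mouse endocardial cushions need, at 8.56 ± 0.799 TPM, Ephb6, whose kinase is inactive, at 3.92 ± 0.177 TPM, and Epha1 at 3.71 ± 0.297 TPM. Efna3, Epha5, Epha8, Epha10 and Epha6 were below 1 TPM in at least one library.

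With all family genes counted, some class ratios changed. All ephrins over all Eph genes gave 1.30 ± 0.0337, and ephrin-B over all EphB genes gave 1.65 ± 0.0151. The A class turned round, since all ephrin-A over all EphA genes gave 0.945 ± 0.0463, below 1 in both libraries. All EphB over all EphA genes gave 0.996 ± 0.0167, with one library on each side of 1. Epha7 alone made up 67.3 ± 2.05% of the EphA sum, so the EphA level of the 10 genes, 9.98 ± 0.827 TPM, was a small share of the class total of 70.4 ± 0.714 TPM.

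**Figure D3:**
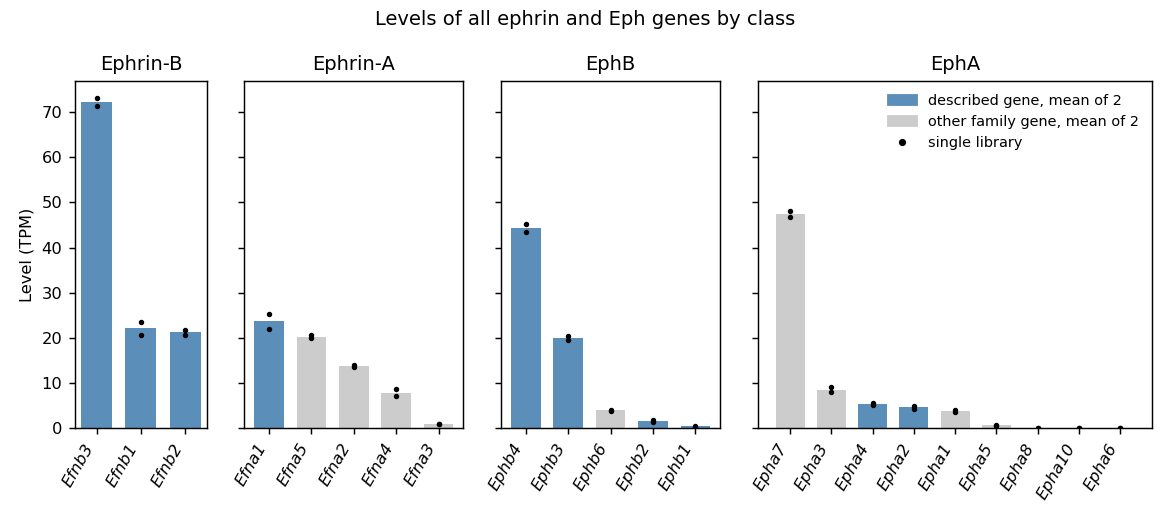
Mean level in TPM of all 22 ephrin and Eph genes by class, with a point for each library, the 10 genes described here in blue and the other 12 in grey. Efnb3 and Ephb4 lead their classes, Epha7 leads the EphA class, and Efna1 and Efna5 lead the ephrin-A class.

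Some family members are neighbours in the genome. Efna1 is 32757 bases from Efna3 on chromosome 3, and Efna3 is 10425 bases from Efna4. Efna1 had 23.6 TPM, Efna4 7.88 TPM and Efna3, which lies between them, 0.985 TPM. Ephb2 and Epha8 lie 93431 bases apart on chromosome 4, with means of 1.480 and 0.095 TPM.

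Between the libraries, 1 of the 10 genes differed by 1.5-fold or more either way on the TPM + 0.1 scale. The background was 3.58% of the 13529 protein-coding genes with a mean of at least 20 reads, made up of 2.04% lower and 1.54% higher in replicate 2. The gene was Ephb1, with 0.27 TPM in replicate 2 and 0.54 TPM in replicate 1, a log2 difference of -0.79. Its CPM, reads scaled to the total on genes, was 0.848 in replicate 2, with an exact 95% interval of 0.554 to 1.24, and 1.61 CPM in replicate 1, with an interval of 1.21 to 2.10. The intervals, which cover counting error only, overlapped only between 1.21 and 1.24 CPM. Such an overlap does not show that the difference lies within counting error. Of the 806 protein-coding genes with a read count close to that of Ephb1, within 0.5 on the log2 scale, 23.3% differed by 1.5-fold or more. With a pseudocount of 1 the log2 difference of Ephb1 was -0.28, and none of the 10 genes passed 1.5-fold.

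The other 9 genes were higher in replicate 2, as were 56.6% of protein-coding genes with a mean of at least 20 reads. Over all 10 genes, Ephb1 included, the median difference was 0.12 on the log2 scale, against 0.02 over the same protein-coding genes. Among the 9, Ephb2 had the largest, with 1.70 TPM in replicate 2 and 1.26 TPM in replicate 1, a log2 difference of 0.40. Efnb3, Ephb4, Efnb2 and Ephb3 each differed by less than 0.1 on that scale. Efna1 differed by 0.193 and Efnb1 by 0.182, where the SD of 1 library at like levels was 0.0636 and 0.0739. The SD of 1 library is smaller than that of a difference between 2 libraries, so it understates the spread of these differences. Epha2 differed by 0.192 and Epha4 by 0.143, where the SD of 1 library was 0.145. In CPM Ephb2 differed less than in TPM, with 5.45 in replicate 2 and 4.81 in replicate 1. Its deposited length, which enters TPM, was 4690 bases in replicate 2 and 5502 bases in replicate 1. Deposited lengths also differed for other genes, shorter in replicate 2 for Efnb1 and Epha4 and longer for Ephb3. The part of length in the TPM differences was not tested.

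Markers of other organs also differed between the libraries. All 5 liver markers were lower in replicate 2, with a summed level of 29.21 TPM in replicate 2 and 134.97 TPM in replicate 1. Afp, the fetal liver protein alpha-fetoprotein, had 18.24 TPM in replicate 2 and 99.30 TPM in replicate 1. Apoa1, Alb, Ttr and Ahsg were the others. Of the 5 lung and foregut markers, which summed to 4.72 TPM in replicate 2 and 2.61 TPM in replicate 1, Nkx2-1 and Sox2 were higher in replicate 2 past 1.5-fold. Nkx2-1 had 1.07 TPM from 49 reads in replicate 2 and 0.10 TPM from 5 reads in replicate 1. Sox2 had 0.52 TPM from 26 reads in replicate 2 and 0.29 TPM from 16 reads in replicate 1. Neither was detected by the rule used here. Foxa2 went the other way, with 0.36 TPM in replicate 2 and 0.45 TPM in replicate 1. Epcam, the only lung and foregut marker detected, had 2.51 TPM in replicate 2 and 1.70 TPM in replicate 1. Shh had 0.26 TPM from 14.21 reads in replicate 2 and 0.07 TPM from 4.57 reads in replicate 1. The neural markers Tubb3 and Stmn2 had 6.19 and 2.28 TPM in replicate 2 and 7.44 and 2.64 TPM in replicate 1. Foxd3 was at 0 in replicate 2 and at 0.02 TPM in replicate 1, from 1 read, which is too few to compare. Sox10 had 0.21 TPM in replicate 2 and 0.23 TPM in replicate 1. The part of these differences in the values of Ephb1 and Ephb2 was not tested.

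**Figure D4:**
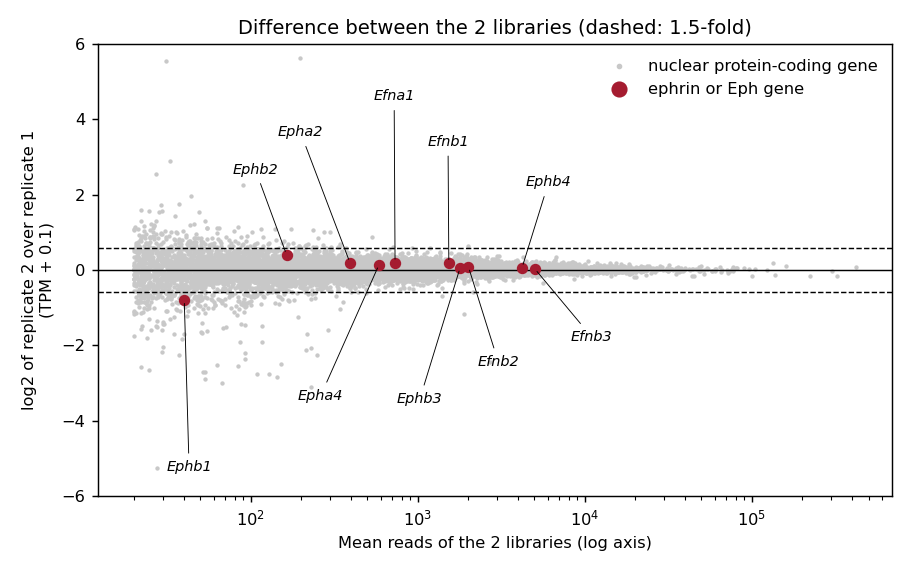
Log2 of replicate 2 over replicate 1 on the TPM + 0.1 scale against the mean reads of the libraries (log axis), for protein-coding genes with a mean of at least 20 reads in grey and the 10 genes in red. Ephb1 lies below the lower dashed line at 1.5-fold, and the other 9 lie above 0 within the lines.

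Family members resemble each other in sequence, so it was checked whether reads could have been divided between them. The authors' posterior SD of the read count was at most 0.07 reads in either library for all 10 genes. The deposited effective lengths were 99 bases shorter than the transcripts. The longest identical stretch between the leading transcripts of any receptor pair ran from 17 to 38 bases over 15 pairs, between a ligand and a receptor from 10 to 18 bases over 24 pairs, and between ligands from 10 to 22 bases over 6 pairs. The longest, in Ephb1 and Ephb3, lies within 1 coding exon of each and is shown in capitals, with 12 bases on either side.
Ephb1: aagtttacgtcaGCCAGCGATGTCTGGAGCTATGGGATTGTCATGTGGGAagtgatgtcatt
Ephb3: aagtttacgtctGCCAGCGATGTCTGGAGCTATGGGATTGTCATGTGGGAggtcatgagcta
The shared 38 bases are at chr9:101936118-101936155 on the minus strand in Ephb1 and at chr16:21221690-21221727 on the plus strand in Ephb3. Ephb3, at 20.0 ± 0.601 TPM, was far higher than Ephb1, at 0.405 ± 0.191 TPM, although they share this stretch.

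Overlapping genes were also read, since no source used here says whether the counting used strand. Ephb4 shares 33 exon bases with Zan on the opposite strand, and Zan had 0.03 and 0 TPM in replicates 1 and 2. Ephb1 shares 152 exon bases with the long non-coding gene Gm26846 on the opposite strand, which was at 0 in both libraries. No other annotated gene overlapped exons of the 10.

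The transcript tables list 37 transcripts of the 10 genes, and in 9 of the 10 the same transcript led in both libraries. The leading transcript held at least 90% of the gene's TPM in both libraries in 6 genes. Efnb3 and Efnb2 were at 100% in both. Efna1-201 held 99.7 ± 0.42%, Epha2-201 98.9 ± 1.57%, Efnb1-201 97.5 ± 3.58% and Ephb3-201 96.8 ± 2.08%. All 6 of these leading transcripts are protein coding, and the 4 ligand genes are among them.

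In Ephb4 a second coding transcript had reads in both libraries. Ephb4-201 held 91.1% of the gene's TPM in replicate 1 and 86.7% in replicate 2. Ephb4-203 held 8.93% and 10.55%, at 3.87 and 4.78 TPM, from 384.05 and 428.23 estimated reads. A further coding transcript, Ephb4-202, had no reads in replicate 1 and 2.47% of the gene in replicate 2. The coding sequences of Ephb4-203 and Ephb4-201 differ by 27 bases, 9 codons, at the start of one exon, at chr5:137362363-137362389 on the plus strand. These bases are in capitals, with 18 coding bases of the spliced transcript on either side.
Ephb4-203: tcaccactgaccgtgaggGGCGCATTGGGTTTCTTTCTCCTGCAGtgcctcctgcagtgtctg
Ephb4-201: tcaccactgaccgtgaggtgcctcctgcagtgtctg
The coding sequence is 2988 bases in Ephb4-203 and 2961 in Ephb4-201, so the reading frame is kept. The share of Ephb4-203 rests on the authors' division of reads between overlapping transcripts, and its posterior SD was 97.0 reads in replicate 1 and 140.01 reads in replicate 2. The whole transcripts are 4296 bases for Ephb4-203 and 4340 for Ephb4-201, so they also differ outside the coding sequence.

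Epha4, Ephb2 and Ephb1 were more divided, while Epha2, of a level like Epha4, was not. Epha4-201 held 65.7 ± 2.93% of the TPM of Epha4, and all coding transcripts together held 81.2 ± 4.69%. The rest was assigned to a retained-intron transcript, with 11.4% in replicate 1 and 10.2% in replicate 2, and to transcripts marked for nonsense-mediated decay. By the authors' posterior means the share of Epha4-201 was 39.0%, so it depended on the estimate used. Ephb2-201 held 62.7% in replicate 1 and 39.8% in replicate 2, and coding transcripts of Ephb2 together held 73.2 ± 10.9%. In Ephb1 the leading transcript was Ephb1-202 in replicate 1, with 64.8%, and Ephb1-201 in replicate 2, with 100%, from 54 and 26 reads for the whole gene.

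**Figure D5:**
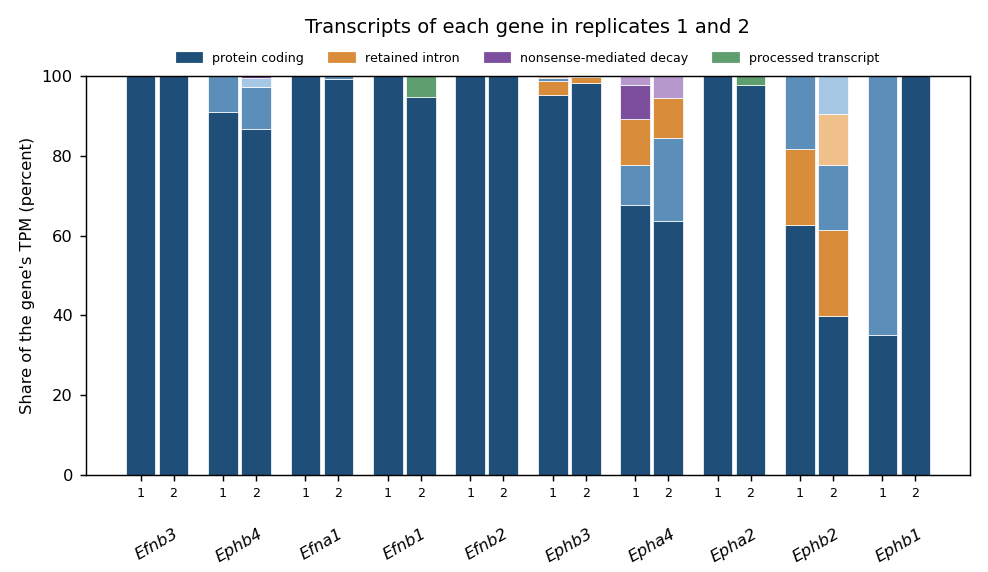
Share of each transcript in its gene's TPM, in percent, in replicates 1 and 2, with transcript types by colour and shades of a colour for different transcripts of one type. The ligand genes and Ephb3 and Epha2 rest almost wholly on one coding transcript, while Epha4 and Ephb2 are divided in both libraries and Ephb1 in replicate 1 only.

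The genes that carry the signal onward were read as lists. Of 32 forward signalling genes, 31 were detected, beside 57.5% of nuclear protein-coding genes. The median level of the list was 19.4 TPM, close to the 18.9 TPM of detected protein-coding genes. The highest were the small GTPases Cdc42 at 437 ± 7.68 TPM, Rhoa at 291 ± 12.02 TPM and Rac1 at 245 ± 4.12 TPM, and the adaptor gene Crk at 90.02 ± 0.191 TPM. The gene not detected was Ngef, the exchange factor ephexin that binds EphA4 in neurons, at 0.16 ± 0.0424 TPM. One gene differed past 1.5-fold between the libraries in TPM: Chn1, which encodes a Rac-inactivating protein that acts downstream of EphA4 in mice. It had 13.92 TPM in replicate 2 and 7.50 TPM in replicate 1. Its reads differed much less, with 553.92 in replicate 2 and 509.94 in replicate 1. TPM also depends on the transcripts to which reads are assigned, and the part of this in the difference was not tested. Chn1 was named after its values were seen.

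The list of reverse signalling and cleavage was detected in full, 12 of 12, and had its median at 35.5 TPM. The background is the same 57.5% detected and the same median of 18.9 TPM. Sdcbp, which encodes syntenin, a PDZ protein that binds the ephrin-B end shown above, had 233 ± 1.64 TPM. Ncstn, a subunit of the gamma-secretase complex, had 108 ± 0.134 TPM. The metalloproteases Mmp14 and Adam10, which cut Eph receptors and ephrins, had 99.01 ± 0.827 and 86.9 ± 0.544 TPM. The lowest was the PDZ scaffold gene Grip1, at 2.88 ± 0.438 TPM. Most of these genes serve many other pathways, so their levels do not belong to ephrins alone.

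Efnb2 and Ephb4 were set beside other arterial and venous genes. Of 14 arterial genes 13 were detected, beside 57.5% of nuclear protein-coding genes, and the median of the list was 14.9 TPM. Its highest genes were Gja5 at 122 ± 0.905 TPM, Nrp1 at 69.6 ± 0.742 TPM and Hey2 at 38.9 ± 2.78 TPM. Efnb2, at 21.2 TPM and not itself in the list, was lower than each of these genes. The arterial gene not detected, Cxcr4, had 1.24 TPM in replicate 2 and 0.77 TPM in replicate 1. Each of the 6 venous genes, Ephb4 among them, was detected, and their median was 11.4 TPM. Both medians were below the 18.9 TPM of detected protein-coding genes. Emcn, at 54.3 ± 1.58 TPM, was higher than Ephb4, and Nr2f2, at 15.8 ± 0.863 TPM, was lower. Heart muscle is known to express Gja5, Hey2 and Nr2f2 too, and Emcn was also among the endothelial and endocardial markers used above. These lists therefore do not measure vessels alone.

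The 300 bases around each gene's start, 250 before and 50 after, were read from the RefSeq promoter table on GRCm38.p6, which held 10 windows for 9 of the genes and none for Efnb3. The count of the letters CG on one strand ran from 10 in Epha2 to 35 in Efnb2. All 10 windows were above 7, the median of the 32817 promoters in the table, as were 48.6% of those promoters. The letters TATAAA, searched on both strands, occurred in the window of Efnb2 and in no other of the 10, and in 13.6% of all promoters.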

How the data were processed

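The genome build mm10 and the GENCODE M4 annotation are named per the deposited notes and file headers. Aligner, quantifier, strand setting and any removal of ribosomal RNA were not given in the sources used here. Per the labels, the protocols name mirVana extraction and cite the user guide of a SMARTer ultra-low RNA kit. The deposited expected count is the authors' estimate of reads per gene or transcript, which need not be whole. The TPM that the authors deposited is each feature's share after correction for length, with spike-ins in the total. The deposited FPKM values, used as an alternative, scale by length and library size. The authors' deposited percent column holds each transcript's share of its gene. The authors also deposited posterior means, posterior SDs and credibility bounds, whose level is not stated.

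Rows with no Ensembl mouse gene (spike-ins, phiX and numeric identifiers) were left out of CPM and counts of genes. Of the 43346 gene identifiers 42462 matched GENCODE M21, which gave names, types and coordinates. Levels are TPM, with mean and SD over 2 libraries. Detection was set at 1 TPM in both libraries. Pairs and differences between libraries used log2(TPM + 0.1), which understates differences of low genes. Each pair's standard error came from a robust SD of the replicate differences, taken in 20 bins of abundance. Differences between libraries were read for genes with a mean of 20 reads or more, past 1.5-fold. Intervals on reads are exact Clopper-Pearson at 95% and, like the floor of 3 reads, cover counting error only. The libraries differed by more than sampling noise, with a chi-square of 4.60 per gene, and were kept as separate replicates.

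Expected counts were rounded only to compute TMM factors in edgeR 4.0.16 and size factors in DESeq2 1.42.0 (R 4.3.3), as alternatives; neither tool was used for a test. Other steps used matplotlib 3.10.9, scipy 1.17.1, pandas 2.3.3 and numpy 2.4.6 under Python 3.11.15, and were tested on simulated data. Alternatives covered thresholds, pseudocounts, units, scaling and each library alone.

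The genes and lists were chosen with earlier results of these data known. Named are the 10 genes, other family genes at 1 TPM or more, the 4 highest and the lowest of each signalling list, the 3 highest arterial and venous genes, and at most 8 markers of other cell types past 1.5-fold between the libraries. Epha5, Epha6, Epha8, Epha10, Efna3, Foxa2, Epcam, Shh, Chn1 and Cxcr4, the neural markers and the overlapping genes fall outside this rule. They were named after their values were seen. One neural marker is not reported here.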

Additional observations from a re-analysis of the deposited data

How the results depend on the processing

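Of the 115 alternative values, 86 stayed within the spread of the main values (for counts, within 1.5 times), 27 moved and 2 changed direction. Some of the 86 could not have moved. A gene's level or a class ratio from 1 of the 2 libraries always lies within their SD of the mean. FPKM differs from TPM by 1 factor per library, so class ratios in FPKM were fixed too. For these values the tally does not measure robustness. Scaling TPM over nuclear mouse genes alone raised the median of the 10 genes to 23.4 TPM, against 20.6 TPM. Ordering by CPM, not per length, kept 6 of the 10 places. Genes past 1.5-fold between libraries numbered 1, but 0 with a pseudocount of 1, with at least 100 reads or at 2-fold, and 2, Ephb1 and Ephb2, at the lowest fold limit tried. On the log2 scale, ephrins over Eph receptors were 0.87, but 0.84 by posterior mean TPM and 0.37 with all family genes. Ephrin-B over EphB was 0.81, but 0.79 and 0.72 in the same settings. Ephrin-A over EphA was 1.24, but 1.11 and, with all family genes, -0.083. EphB over EphA was 2.73, but 2.61 and, with all family genes, -0.0064. The setting that turned these adds the other family genes, among them Epha7, which holds 67.3% of the EphA sum. The median leading transcript share was 97.1%, but 99.2% by expected counts, 92.4% by posterior mean, and 97.67% to 98.03% leaving out each replicate in turn. Leaving out a replicate could not be run for the difference between libraries or for the count of genes with the same leading transcript, which need both. No paired analysis was possible because there is 1 group of 2 libraries. Depth limits Ephb1 (54 and 26 reads) and Ephb2 (161 and 167 reads) most.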
